A study of Rattus norvegicus with 6 samples.

Results

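The 102 genes described here had 2- to 4-fold higher normalised read counts in the thyroid of rats in late pregnancy than in non-pregnant rats. They were chosen by 2 values taken from the deposited read counts: a mean count of 30 or more in the non-pregnant (NP) samples, and a mean CPM (reads of a gene per 1000000 reads counted in the sample) in late pregnancy (LP) between 2 and 4 times the NP mean. Of the 15388 genes measured, 9093 reached that count and 102 of these fell in the range after 9 genes were set aside by name (Arntl, Ccng1, Cdkn1a, Ifi27, Ifi27l2b, Irf7, Irf9, Mx2 and Oasl2). The thyroid glands came from adult Sprague-Dawley rats. NP was 3 samples from non-pregnant females and LP was 3 samples from females on day 18 of pregnancy, where the day a vaginal plug was found counted as day 1. Polyadenylated RNA was sequenced. No transgene or treatment is named for either group, and the sources used here call the animals adult without giving an age. The glands were whole tissue, so for every gene below more cells of a type and more RNA per cell cannot be told apart. Since the LP to NP ratio chose the genes, that ratio is given as a description, without a test.

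Many of the 102 genes belong to the machinery that turns fuel into ATP. The citrate cycle in the mitochondrial matrix oxidises acetyl groups that come from sugar and fatty acids, the respiratory chain passes the electrons to oxygen through coenzyme Q and cytochrome c, and ATP synthase uses the resulting proton gradient. All nucleated cells carry this machinery, but skeletal and heart muscle are especially rich in it, whereas sarcomere and Z-disc proteins such as tropomyosin and nexilin are best known from muscle. The thyroid follicular cell, which makes thyroid hormone on thyroglobulin, is an epithelial cell that lies beside the striated muscles of the neck and contains no sarcomeres.

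The genes were sorted by function into 12 groups and by their relation to muscle into 3 classes, from general knowledge and with the membership known. The muscle class held 15 genes known mainly from muscle (Nexn, Tmod1, Tpm2, Coro6, Ppp1r12b, Tln2, Sgcb, Dtna, Synm, Cacnb1, Jph1, Fbxo32, Cand2, Smarcd3 and Car3). The shared class held 42 genes that many tissues use and that muscle uses heavily, most of them for energy metabolism. The other 45 genes were placed in neither class. Muscle can make genes of the 45 as well, such as Sptb, so they are not a class without muscle expression. The median ratio was 2.74 in the muscle class, 2.36 in the shared class, 2.24 in the rest and 2.34 over all 102 genes. Most genes sat near the lower limit of the range, with 40 at a ratio of 2 to 2.25, 25 at 2.25 to 2.5, 22 at 2.5 to 3, 8 at 3 to 3.5 and 7 above 3.5. The genes just inside a ratio of 2 were Efhd1 (2.01), Lmcd1 (2.01) and Aldh1a1 (2.01), and those just outside it were Hadhb (1.99), Mical2 (1.99) and Atp2a2 (1.99). At the upper limit, Nexn (3.92), Crat (3.88) and Tmod1 (3.83) lay inside, while Twf2 (4.03), Fxyd1 (4.10) and Speg (4.15) lay outside. At the limit on counts, Lgals9 (mean NP count 31.0), Usp2 (31.3) and Adamts15 (32.3) lay inside, and Gdf15 (29.7), Tbx1 (28.3) and Igf2 (28.0) lay outside.

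**Figure D1:**
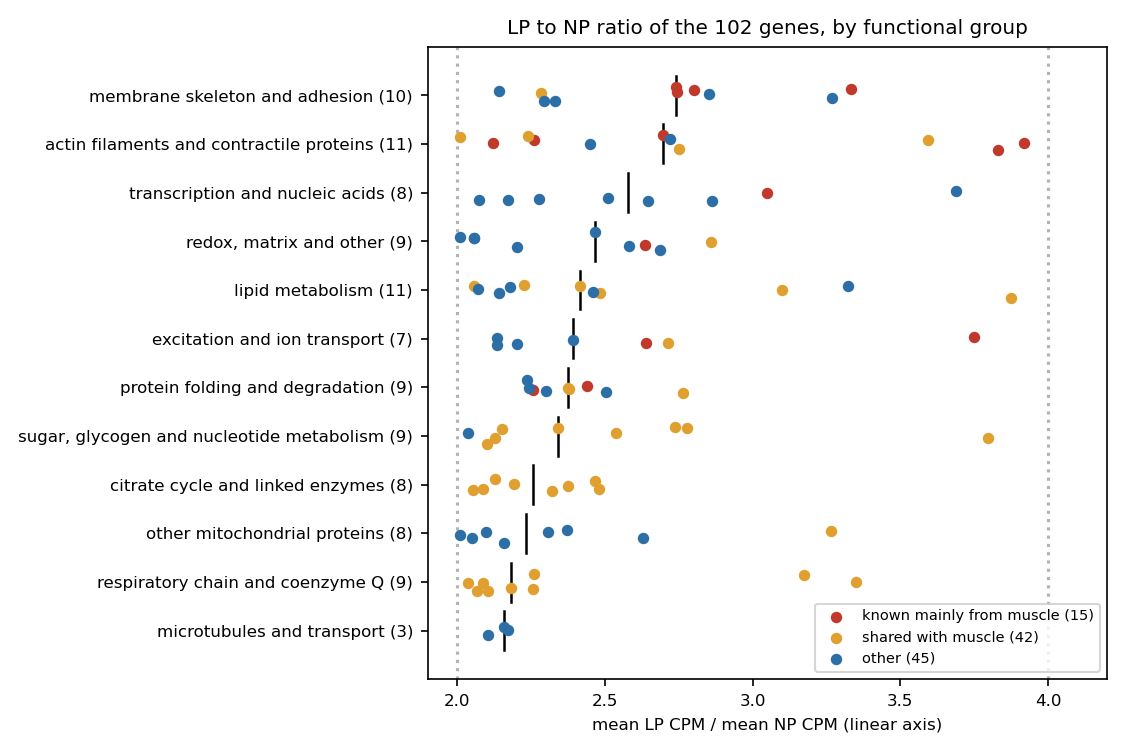
Each point is 1 of the 102 genes, placed by its ratio of mean LP CPM to mean NP CPM (linear axis) in its functional group, with the number of genes in brackets, the median as a black bar and the dotted lines at the limits of the range. Colours mark the relation to muscle, and the muscle class reaches from 2.12 to 3.92 with a median of 2.74.

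The samples held 2752144 to 2965936 counted reads in NP and 3224104 to 3449857 in LP, so that 3 reads corresponded to 0.870 to 1.09 CPM. The mean NP count of the 102 genes ran from 31.0 to 1329.7 reads with a median of 101, and was under 50 for 31 genes. Replicates 2 and 3 of each group differed by no more than sampling noise (chi-square per degree of freedom 1.02 in NP and 0.995 in LP) and were counted as 1 sample, which leaves n = 2 in each mean ± SD. Replicate 1 differed from both in each group (chi-square per degree of freedom 3.70 to 4.11), and ratios are therefore also given for replicate 1 alone and for replicates 2 and 3 alone. Thyroglobulin (Tg), the defining product of the gland, took 22.9% to 24.5% of the reads in every sample. Markers of skeletal muscle were low in NP and high in LP: 24 of them together took 0.0063% to 0.0226% of the reads in NP and 0.794% to 0.826% in LP, every LP value was above every NP value for 21 of the 24, and 9 were at 0 in at least 1 NP sample. For 14.4% of the 9093 genes with a mean NP count of 30 or more, every LP value lay above every NP value. Of the 24 markers only skeletal actin (Acta1) and desmin (Des) reached that count, so this share is not a matched background for them. None of these 24 markers is among the 102 genes, and their median ratio was 181. The markers were listed with earlier results known, and some are among the genes the study reported as most raised in these samples. These marker counts and ratios are therefore a description only. Their part in the values below was not tested. The heart muscle markers Nppa, Tnni3 and Myl7 had at most 7 reads in any sample. With Tnnt2 and Myl4 they summed to 5.45, 6.74 and 11.2 CPM in NP and 21.1, 24.9 and 25.2 CPM in LP, and the 9 thyroid follicular cell markers other than Tg to 8711, 8286 and 8373 CPM in NP and 7849, 7376 and 7369 CPM in LP.

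The 102 genes together took 0.538% of the reads in NP replicate 1, 0.570% in replicate 2 and 0.582% in replicate 3, and 1.37%, 1.36% and 1.36% in the LP replicates. For every 1 of the 102, the lowest LP value lay above the highest NP value, which was so for 14.4% of the 9093 genes with a mean NP count of 30 or more. For 56 genes the lowest LP value was at least 2 times the highest NP value, a gap whose share over the 9093 genes was not counted. The ratio that chose the genes comes from the same values, and nothing is read from either count.

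Promoter sequences are shown for 6 genes whose windows each hold a motif that was searched: 2 of fuel oxidation (Acadm and Mdh2), 1 of glycogen synthesis (Gyg1), 1 of ATP synthase (Atp5g1) and 2 of the actin skeleton (Svil and Limch1). None of the 6 is of the muscle class, and their motifs do not stand for their groups. The sequences are RefSeq windows of assembly GRCr8 from 250 bases before to 50 bases after the annotated start, written 5′ to 3′ along the gene, which lies on the minus strand for each of the 6. Capitals mark a match to a short motif. In Acadm (chr2:245542815-245543114) and Mdh2 (chr12:26543792-26544091) they mark the cAMP response element TGACGTCA, in Gyg1 (chr2:104582728-104583027) and Atp5g1 (RefSeq symbol Atp5mc1, chr10:81523296-81523595) the E-box CACGTG, in Svil (chr17:57462611-57462910) the CArG box bound by serum response factor, and in Limch1 (chr14:41778788-41779087) the MEF2 box.
Acadm: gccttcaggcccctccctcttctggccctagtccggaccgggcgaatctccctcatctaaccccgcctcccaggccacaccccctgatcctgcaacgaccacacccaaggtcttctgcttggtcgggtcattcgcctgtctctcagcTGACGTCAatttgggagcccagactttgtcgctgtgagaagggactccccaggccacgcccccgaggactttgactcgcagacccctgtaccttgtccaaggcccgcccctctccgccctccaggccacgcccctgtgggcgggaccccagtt
Mdh2: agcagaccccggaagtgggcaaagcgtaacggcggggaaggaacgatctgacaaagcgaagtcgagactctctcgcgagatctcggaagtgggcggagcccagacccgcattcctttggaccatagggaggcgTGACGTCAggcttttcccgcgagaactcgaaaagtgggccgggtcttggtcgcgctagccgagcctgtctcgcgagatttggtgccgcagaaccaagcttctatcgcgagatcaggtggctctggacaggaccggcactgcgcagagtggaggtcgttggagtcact
Gyg1: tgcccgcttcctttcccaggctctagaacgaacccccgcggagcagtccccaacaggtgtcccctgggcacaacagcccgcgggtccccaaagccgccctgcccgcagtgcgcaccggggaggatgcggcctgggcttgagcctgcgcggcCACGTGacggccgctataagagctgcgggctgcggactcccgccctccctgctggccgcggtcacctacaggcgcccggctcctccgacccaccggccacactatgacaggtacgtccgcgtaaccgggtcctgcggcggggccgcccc
Atp5g1: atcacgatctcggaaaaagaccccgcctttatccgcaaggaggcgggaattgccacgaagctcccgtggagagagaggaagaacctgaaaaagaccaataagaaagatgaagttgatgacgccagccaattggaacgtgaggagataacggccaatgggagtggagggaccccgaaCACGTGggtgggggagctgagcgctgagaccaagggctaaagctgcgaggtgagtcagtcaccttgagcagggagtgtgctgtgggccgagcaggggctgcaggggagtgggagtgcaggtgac
Svil: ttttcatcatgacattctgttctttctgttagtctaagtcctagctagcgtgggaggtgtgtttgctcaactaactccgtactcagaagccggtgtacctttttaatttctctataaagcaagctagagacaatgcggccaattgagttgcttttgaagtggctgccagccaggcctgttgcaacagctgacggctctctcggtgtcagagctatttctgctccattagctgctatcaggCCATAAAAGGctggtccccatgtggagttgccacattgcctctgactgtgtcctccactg
Limch1: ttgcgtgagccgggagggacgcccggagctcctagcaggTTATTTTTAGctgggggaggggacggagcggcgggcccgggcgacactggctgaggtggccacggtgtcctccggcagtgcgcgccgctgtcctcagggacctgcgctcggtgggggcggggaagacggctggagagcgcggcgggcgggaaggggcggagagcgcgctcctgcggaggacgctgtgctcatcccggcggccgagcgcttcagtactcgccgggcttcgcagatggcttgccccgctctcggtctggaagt

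Windows were found for 82 of the 102 genes, 80 by symbol and 2 by synonym, and motifs were searched on both strands. Among the genes for which no window was used were Cacnb1, Barx2, Ak1, Kcnj11, Jph1, Car3, Lpl, Gpd1, Pvrl1, Fbxo32, LOC683884, Pex5l, Slc41a1, Idh3a and Adamts15. The E-box CACGTG occurred in 7 windows (8.54%), against 6.42% of all 33469 windows and 9.89% of the 7352 windows of genes with a mean NP count of 30 or more. All 7 belonged to the groups of lipid, sugar, citrate cycle, respiratory chain and other mitochondrial genes (Pink1, Macrod1, Gyg1, Nnt, Pla2g12a, Ppp1r3c and Atp5g1). They were 18.9% of the 37 genes of these groups with a window. The lipid group includes secreted and lysosomal enzymes, among them the secreted phospholipase Pla2g12a, so not all of these genes serve energy metabolism or mitochondria. The E-box CAGCTG, the form that myogenic factors bind, occurred in 18 windows (22.0%) against 15.7% of the windows of the well-measured genes, and in 2 of the 11 windows of the muscle class. The MEF2 box was found in 4 windows (4.88% against 1.12%), those of Ndrg2, Tcea3, Rcsd1 and Limch1, and in none of the 11 of the muscle class. The CArG box was found in Svil and Itgb6 (2.44% against 1.35%), and TGACGTCA in Acadm, Mdh2 and Lmcd1 (3.66% against 3.21%). The NRF1 element, which is GCGCA and GCGC with 1 base between them, occurred in 5 windows (6.10% against 11.0%), AAGGTCA, bound by estrogen related receptors, in 3 (3.66% against 2.37%), and the direct repeat of AGGTCA with 1 base between the copies and the heat shock element of GAA, TTC and GAA with 2 bases between each were found in 0 windows (0.027% and 0.449%). Both E-boxes are forms of the general E-box CANNTG, and AAGGTCA can overlap the direct repeat. A match describes these letters alone, and its absence says nothing of a factor. The median GC content of the 82 windows was 63.0%, against 62.0% for the well-measured genes.

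The citrate cycle and its linked enzymes gave 8 genes with ratios of 2.05 to 2.48, all of the shared class. The alpha subunit of isocitrate dehydrogenase (Idh3a), an enzyme that makes NADH in the cycle, had 53.4, 47.2 and 58.5 CPM in NP and 118, 109.6 and 104 CPM in LP, that is 53.1 ± 0.403 against 113 ± 7.90 CPM (SD, n = 2), with a ratio of 2.09. Fumarase (Fh) had 56.3, 56.3 and 57.1 CPM in NP and 115, 118 and 115 CPM in LP, and the ratio was 2.05. These enzymes had nearly the same ratio, and their values within a group lay close together. Malate dehydrogenase (Mdh2), whose window holds the TGACGTCA shown above, closes the cycle and stood at 166, 184 and 177 CPM in NP and 427, 387 and 408 CPM in LP, a ratio of 2.32. The mitochondrial aspartate aminotransferase Got2, which works with Mdh2 in the shuttle that carries reducing power into the mitochondrion, was at 139.9, 154 and 141 CPM in NP and 314, 319 and 321 CPM in LP and had a ratio of 2.19. The transhydrogenase Nnt, which makes mitochondrial NADPH, had 200.2, 207 and 199 CPM in NP and 529, 491 and 482 CPM in LP, the highest ratio of the group at 2.48. Pdpr, a regulatory subunit of pyruvate dehydrogenase phosphatase, and Me3, the mitochondrial malic enzyme, had ratios of 2.47 and 2.37. Summed over the 8 genes the values were 1124, 1106 and 1129 CPM in NP and 2567, 2456 and 2471 CPM in LP.

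Of the 21 citrate cycle and pyruvate dehydrogenase genes tested as a whole list, 4 are among the 102 (Idh3a, Fh and Mdh2 among them) and were chosen by their ratio. In edgeR's quasi-likelihood test over 11738 genes, in which 15.3% of all genes were higher and 11.7% lower in LP at an adjusted p below 0.05, 20 of the 21 were higher in LP and 0 lower (also 0 at an unadjusted p below 0.05 and 0 with DESeq2), with a median log2 fold change of 0.78 against -0.01 over all genes tested. Without the 4 genes chosen by their ratio, 16 of 17 were higher. Replicates 2 and 3 entered this test as separate samples, so its p-values and standard errors (SE) may be too small, here and below. With these replicates summed, 18 genes of the list were higher. The other 17 genes of the list lay below the range. Citrate synthase (Cs) rose by a log2 fold change of 0.77 (SE 0.06, adjusted p = 1.8e-08) in edgeR, the iron-sulfur subunit of succinate dehydrogenase (Sdhb) by a log2 fold change of 0.93 (SE 0.06, adjusted p = 4.16e-09), and the ligase subunit Sucla2 by a log2 fold change of 1.02 (SE 0.07, adjusted p = 5.3e-09). The exception was Suclg2, the subunit of the GTP-forming ligase, with a log2 fold change of 0.08 (SE 0.06, adjusted p = 0.346).

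Of the respiratory chain and coenzyme Q, 9 genes were in the range, again all of the shared class. Ndufs1, the largest subunit of complex I, was at 111, 94.4 and 101 CPM in NP and 231, 211 and 226 CPM in LP, a ratio of 2.18, and Ndufs7 at 88.7, 83.3 and 85.2 CPM in NP and 181, 179 and 178 CPM in LP, a ratio of 2.09. Both subunits sit in the part of complex I that passes electrons along iron-sulfur clusters, and no NP value of either reached its LP values. Uqcrfs1, the Rieske iron-sulfur protein of complex III, had 103, 101 and 117 CPM in NP and 231, 248 and 245 CPM in LP, which gave 106 ± 4.29 against 239 ± 10.7 CPM (SD, n = 2) and a ratio of 2.26. The gene listed as LOC683884, described by the study as similar to mitochondrial acyl carrier protein, had 38.5, 39.8 and 38.2 CPM in NP and 90.3, 90.1 and 82.4 CPM in LP and a ratio of 2.26. Cytochrome c (Cycs) and the ATP synthase subunit c gene Atp5g1, whose window with CACGTG is shown above, had ratios of 2.11 and 2.07. Higher ratios were seen for the 2 coenzyme Q proteins. Coq9, which is needed for coenzyme Q synthesis, was at 49.1, 49.2 and 40.9 CPM in NP and 142, 142 and 158 CPM in LP, that is 47.1 ± 2.82 against 146 ± 5.88 CPM (SD, n = 2), with a ratio of 3.17, and Coq10a, a coenzyme Q binding protein, had a ratio of 3.35.

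In the list of 64 tested respiratory chain genes, which holds 6 of the 102 (among them Ndufs1, Ndufs7, Uqcrfs1, Cycs and Atp5g1), 58 were higher in LP, 1 lower and 5 neither in edgeR, with a median log2 fold change of 0.56. Without the 6, 52 of 58 were higher. The lower gene was Cox8a, a small subunit of complex IV, at a log2 fold change of -0.22 (SE 0.06, adjusted p = 0.0177). In a fit blocked on replicate number 2 genes were lower, and 0 to 2 were lower when any 1 sample was left out (0 without NP replicate 2 or 3 or LP replicate 2 or 3, and 2 without replicate 1 of either group). Of 11 tested genes of coenzyme Q, 6 were higher and 1 lower, and 4 of 9 were higher without Coq9 and Coq10a. Adck3, a kinase-like protein of coenzyme Q synthesis, lay above the range with a ratio of 20.4, whereas Coq10b, the close relative of Coq10a, was lower at a log2 fold change of -0.63 (SE 0.14, adjusted p = 0.0019).

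**Figure D2:**
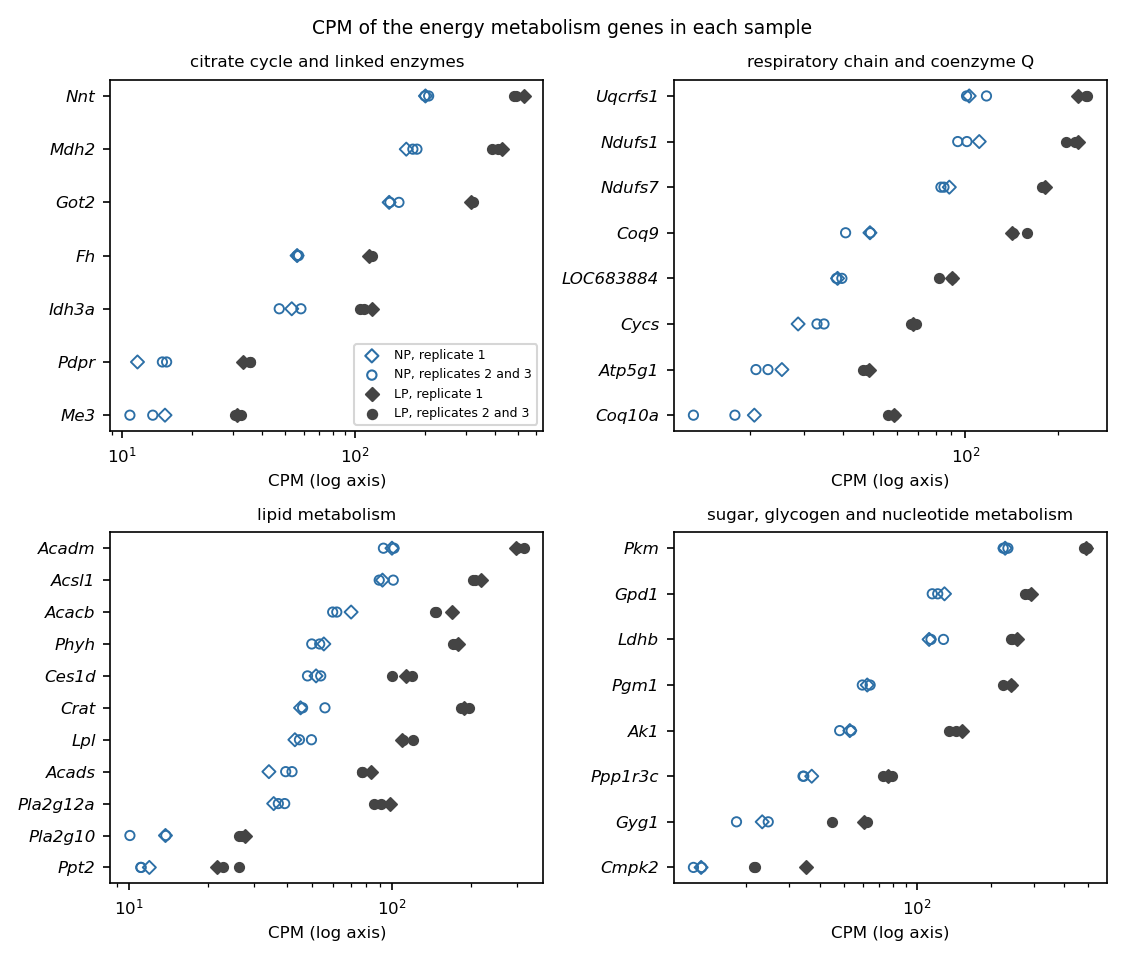
CPM (log axis) of genes of 4 energy metabolism groups in each of the 6 samples, with open blue symbols for NP, filled grey symbols for LP, diamonds for replicate 1 and circles for replicates 2 and 3. In every row the LP symbols lie to the right of the NP symbols, for Mdh2 from 387 CPM upwards against 184 CPM at most.

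The lipid group held 11 genes, 6 of the shared class. Acadm, the medium-chain acyl-CoA dehydrogenase that begins beta-oxidation and whose window is shown above, was at 100.3, 93.1 and 102 CPM in NP and 298, 300.0 and 318 CPM in LP, that is 98.9 ± 1.92 against 304 ± 7.71 CPM (SD, n = 2), with a ratio of 3.10. Carnitine acetyltransferase (Crat), which buffers acetyl-CoA in the mitochondrion, was at 45.1, 45.9 and 55.8 CPM in NP and 189, 183 and 196 CPM in LP, one of the highest ratios of all at 3.88. Acsl1, which activates fatty acids to acyl-CoA, had 92.3, 89.7 and 101 CPM in NP and 219, 207 and 204 CPM in LP and a ratio of 2.22. Between them these genes cover activation, acetyl transfer and the first oxidation step, and Crat had the highest ratio of the 3. Acetyl-CoA carboxylase beta (Acacb), the isoform at the mitochondrial outer membrane whose product malonyl-CoA restrains fatty acid entry, stood at 70.1, 59.7 and 61.9 CPM in NP and 170.3, 147 and 146 CPM in LP, a ratio of 2.42. Phyh, the peroxisomal enzyme that starts the alpha-oxidation of phytanic acid, had 55.2, 53.3 and 49.7 CPM in NP and 178, 176 and 171 CPM in LP and a ratio of 3.32. The carboxylesterase Ces1d, which hydrolyses lipid esters, was at 51.6, 47.9 and 53.8 CPM in NP and 114, 101 and 119.8 CPM in LP, a ratio of 2.18. The remaining genes were lipoprotein lipase Lpl (2.48), the short-chain dehydrogenase Acads (2.06), the secreted phospholipases Pla2g12a (2.46) and Pla2g10 (2.14) and the lysosomal thioesterase Ppt2 (2.07).

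Among 20 tested genes of fatty acid oxidation, 5 of which are in the set (Acadm, Acads, Acsl1, Crat and Lpl), 17 were higher and 1 lower in edgeR, with a median log2 fold change of 0.85. Without the 5, 12 of 15 were higher. The trifunctional protein subunit Hadhb, with a ratio of 1.99, missed the range by the smallest margin and rose by a log2 fold change of 1.06 (SE 0.06, adjusted p = 1.09e-10). Of the isoforms of carnitine palmitoyltransferase 1, the entry step for fatty acids, Cpt1a, the form of most tissues, was lower at a log2 fold change of -0.31 (SE 0.07, adjusted p = 0.00225), and Cpt1b, the muscle form, had a mean NP count of 1.67 reads, too low for the test. DESeq2 called 0 genes of the list lower.

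Of the 9 genes of sugar, glycogen and nucleotide metabolism, 8 were of the shared class. Pyruvate kinase (Pkm) had 229, 235 and 225 CPM in NP and 491, 496 and 479 CPM in LP and a ratio of 2.13, and lactate dehydrogenase B (Ldhb), the form that favours turning lactate into pyruvate, had 112, 128 and 114 CPM in NP and 257, 244 and 242 CPM in LP and a ratio of 2.10. Gpd1, the cytosolic glycerol-3-phosphate dehydrogenase of the glycerol phosphate shuttle, was at 129, 121 and 115 CPM in NP and 292, 288 and 276 CPM in LP, a ratio of 2.34. Phosphoglucomutase 1 (Pgm1), which joins glycogen to glycolysis, had the highest ratio of the group, with 62.5, 59.7 and 64.2 CPM in NP and 243, 241 and 224 CPM in LP, that is 62.2 ± 0.384 against 238 ± 7.07 CPM (SD, n = 2), and a ratio of 3.80. Adenylate kinase 1 (Ak1), which balances adenine nucleotides where ATP is used fast, stood at 53.0, 48.2 and 53.8 CPM in NP and 152, 135 and 144 CPM in LP, a ratio of 2.78. Gyg1, the protein primer of glycogen, had a ratio of 2.54, and Ppp1r3c, which brings protein phosphatase 1 to glycogen, one of 2.15. Cmpk2, a mitochondrial nucleotide kinase known to respond to interferon, had 13.1, 13.1 and 12.2 CPM in NP and 35.0, 21.7 and 21.5 CPM in LP. Its LP value was higher in replicate 1 than in replicates 2 and 3, and its ratio of 2.04 was 2.68 in replicate 1 and 1.71 in replicates 2 and 3, the lowest of the 102 in the latter pair.

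Genes of glycolysis outside the set split. Of 14 tested, 8 were higher and 3 lower (Hk1, Pfkp and Pgam1) in edgeR, and with Pkm and Ldhb of the set the list had 10 higher of 16. Pfkm and Eno3, the muscle forms of phosphofructokinase and enolase, had ratios of 8.73 and 31.2. The mean NP counts of these genes, 26.3 for Pfkm and 2.0 for Eno3, were below the minimum by which the set was chosen. Hk1 was at a log2 fold change of -0.26 (SE 0.06, adjusted p = 0.0043). Pfkp, the platelet-type phosphofructokinase, was at a log2 fold change of -0.29 (SE 0.06, adjusted p = 0.00208). Of 19 glycogen genes tested, 13 were higher and 1 lower, with 4 in the set, among them Gyg1, Pgm1 and Ppp1r3c, and 9 of 15 were higher without the 4. The lower gene was the brain-type phosphorylase Pygb, at a log2 fold change of -0.84 (SE 0.06, adjusted p = 3.75e-09), and 2 genes were lower in the blocked fit, without NP replicate 3 or without LP replicate 1. The muscle phosphorylase Pygm was counted at 0 reads in replicate 1 of both groups and at 18 and 7 in NP and 15 and 19 in LP in replicates 2 and 3, and did not pass.

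**Figure D3:**
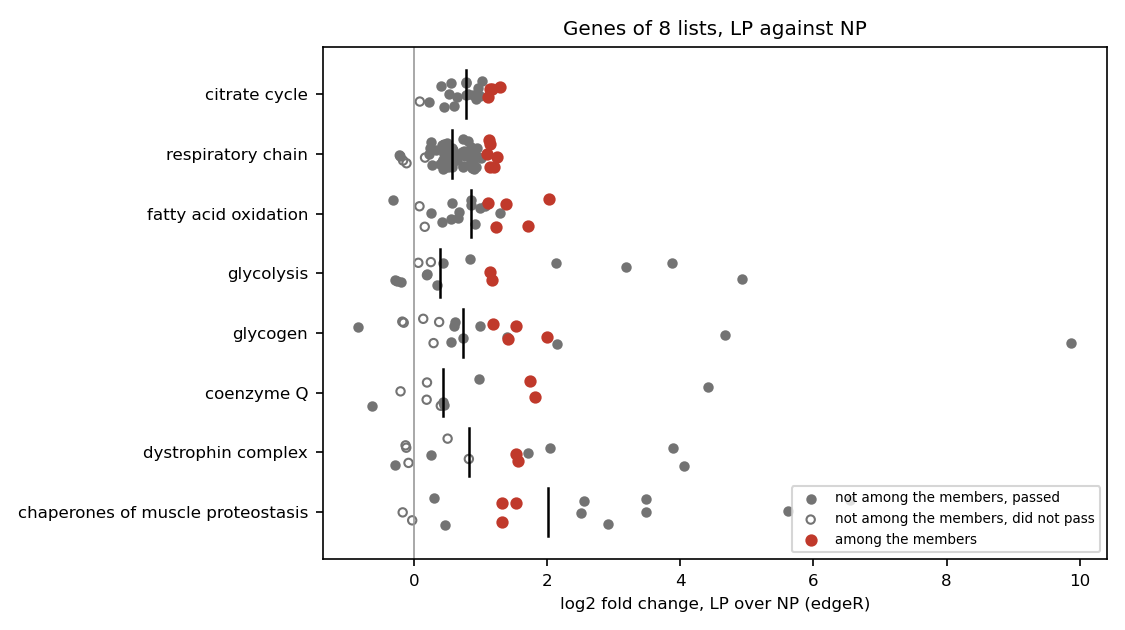
Each point is 1 tested gene of a list, placed by its log2 fold change of LP over NP from edgeR, with red for genes among the 102, filled grey for others past an adjusted p of 0.05, open grey for those not past it, and a bar at the list median. Red points sit near 1 to 2 because the ratio chose them, while 21 of 21 citrate cycle genes and 60 of 64 respiratory chain genes lie above 0.

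The other mitochondrial proteins were 8. Pink1, the kinase that marks damaged mitochondria for removal, had 149.7, 133 and 157 CPM in NP and 482, 484 and 469 CPM in LP, that is 147 ± 3.43 against 479 ± 3.74 CPM (SD, n = 2), and the highest ratio of the group at 3.27. Macrod1, which removes ADP-ribose from proteins, was at 60.3, 56.6 and 58.5 CPM in NP and 151, 156 and 154 CPM in LP, a ratio of 2.63. Gbas, also called Nipsnap2, had 56.3, 54.6 and 53.8 CPM in NP and 136, 126 and 118 CPM in LP and a ratio of 2.31. Both are proteins of the mitochondrion itself, and both were sorted into neither the muscle class nor the shared class. The phosphatase Pptc7 stood at 49.1, 46.2 and 49.7 CPM in NP and 111, 117 and 116 CPM in LP, a ratio of 2.37. Akap1, which anchors protein kinase A at the outer membrane, had 43.2, 44.5 and 58.8 CPM in NP and 96.8, 101 and 103 CPM in LP and a ratio of 2.05, and Mief2, a receptor of the fission factor Drp1, 26.5, 20.2 and 24.3 CPM in NP and 51.5, 49.9 and 47.9 CPM in LP and a ratio of 2.10. Nudt8 had a ratio of 2.16. Efhd1, a calcium-binding protein, lay nearest to the lower limit at 2.01, with 2.92 in replicate 1 and 1.73 in replicates 2 and 3.

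Actin filament and contractile proteins made up 11 genes, 5 of them of the muscle class. Tpm2, the beta-tropomyosin of muscle thin filaments, had 10, 613 and 615 reads in the 3 NP samples, in replicate order, and 702, 1248 and 1263 in LP. As CPM these were 3.63, 207 and 208 CPM in NP and 218, 362 and 366 CPM in LP. NP replicate 1 thus held a small fraction of what the other NP samples held, and the ratio of 2.26 was 59.9 in replicate 1 and 1.76 in replicates 2 and 3. The gain from NP to LP was 214 CPM in replicate 1 and 157 CPM in replicates 2 and 3. Svil, or supervillin, which ties actin to the membrane, was at 50.1, 72.5 and 74.7 CPM in NP and 165, 188 and 189 CPM in LP, a ratio of 2.75. Ppp1r12b, the targeting subunit of myosin phosphatase in striated muscle, had 38.2, 61.4 and 68.3 CPM in NP and 97.1, 134 and 124 CPM in LP, a ratio of 2.12 that was 1.99 in replicates 2 and 3. Coro6, a coronin of muscle and nerve that binds actin, was at 34.2, 27.6 and 33.1 CPM in NP and 96.2, 79.7 and 80.1 CPM in LP and had a ratio of 2.70. Unlike Tpm2, Coro6 was no lower in NP replicate 1 than in the other NP samples. The LIM protein Lmcd1 had 28.0, 28.3 and 27.4 CPM in NP and 53.7, 57.7 and 56.9 CPM in LP, a ratio of 2.01, and Rcsd1, which binds the actin capping protein CapZ, 18.2, 18.5 and 20.6 CPM in NP and 44.7, 47.5 and 48.2 CPM in LP, a ratio of 2.45. Nexilin (Nexn), an actin-binding protein of the Z-disc, had 9.81, 21.2 and 18.6 CPM in NP and 63.0, 65.5 and 66.1 CPM in LP and the highest ratio of the 102 at 3.92, with 6.42 in replicate 1 and 3.30 in replicates 2 and 3. Tropomodulin 1 (Tmod1), which caps the pointed ends of thin filaments, had 13.8, 13.1 and 13.5 CPM in NP and 49.0, 51.3 and 54.8 CPM in LP and a ratio of 3.83. Synaptopodin (Synpo), Limch1 and Afap1l1, all linked to actin, had ratios of 3.59, 2.24 and 2.72.

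The membrane skeleton and adhesion group held 10 genes, 4 of the muscle class. Synemin (Synm), an intermediate filament protein that links desmin to the membrane of muscle fibres, was at 43.6, 60.0 and 58.1 CPM in NP and 141, 148 and 155 CPM in LP, that is 51.3 ± 10.9 against 146 ± 7.56 CPM (SD, n = 2), with a ratio of 2.74. Alpha-dystrobrevin (Dtna), a part of the dystrophin complex, had 22.2, 15.8 and 20.3 CPM in NP and 57.1, 50.4 and 52.2 CPM in LP and a ratio of 2.74, and beta-sarcoglycan (Sgcb), of the same complex, a ratio of 2.80. Talin 2 (Tln2), which joins integrins to actin in muscle, had a ratio of 3.33, the highest of the group. Sptb, a beta-spectrin of red cells that muscle also makes, had 38.9, 28.7 and 28.1 CPM in NP and 106, 103 and 104 CPM in LP, a ratio of 3.27. Of 5 tested red cell markers outside the set, 1 was higher in edgeR (Slc4a1, the anion exchanger, adjusted p = 0.0051), 2 were lower (the globins Hba1 and Hbb, adjusted p = 0.0332 and 0.00467) and 2 did not pass (Hba2 and Alas2), and DESeq2 called 1 of them lower. Ehbp1l1 was at 26.5, 52.3 and 47.7 CPM in NP and 104, 127 and 129 CPM in LP, a ratio of 2.85, and Pvrl1, the cell adhesion protein nectin-1, at 28.7, 31.4 and 37.5 CPM in NP and 76.6, 65.5 and 81.8 CPM in LP, a ratio of 2.29. The epithelial integrin Itgb6 had a ratio of 2.14.

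In the list of 13 tested genes of the dystrophin complex, with Sgcb and Dtna in the set, 7 were higher and 1 lower in edgeR, and 5 of 11 were higher without these 2. Sgca, a sarcoglycan of striated muscle, had a ratio of 16.1, and Dmd, dystrophin itself, one of 4.02. Their mean NP counts, 7.0 for Sgca and 12.0 for Dmd, were below the minimum by which the set was chosen. Dmd had 2, 19 and 15 reads in the NP replicates and 46, 63 and 57 in LP. Its ratio thus rests in part on the low count of NP replicate 1. By contrast Utrn, the homologue of dystrophin in most tissues, was at a log2 fold change of -0.09 (SE 0.06, adjusted p = 0.311), and Sgce, the sarcoglycan with a wide distribution, at a log2 fold change of -0.13 (SE 0.12, adjusted p = 0.511). The lower gene, Dtnb, was at a log2 fold change of -0.28 (SE 0.10, adjusted p = 0.0473) and was not called with DESeq2, without the filter on low counts or without any 1 of the 6 samples.

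The 7 genes of excitation and ion transport included Cacnb1 and Jph1 of the muscle class. Cacnb1, the beta subunit of the calcium channel that couples excitation to contraction in skeletal muscle, had 17.8, 11.5 and 12.2 CPM in NP and 53.7, 50.1 and 51.6 CPM in LP, a ratio of 3.75. Junctophilin 1 (Jph1), which holds the surface membrane against the calcium store, was at 17.8, 21.9 and 19.6 CPM in NP and 52.1, 54.5 and 49.9 CPM in LP, a ratio of 2.64. Kcnj11, the pore of the ATP-sensitive potassium channel, had 20.3, 27.3 and 31.4 CPM in NP and 69.5, 71.6 and 73.7 CPM in LP and a ratio of 2.72. These 3 had the highest ratios of the group. The kinase Wnk2, which regulates chloride cotransport, was at 63.6, 59.7 and 70.7 CPM in NP and 129.6, 141 and 143 CPM in LP, a ratio of 2.13. The magnesium carrier Slc41a1 had 42.1, 38.8 and 40.6 CPM in NP and 90.3, 83.8 and 85.3 CPM in LP, a ratio of 2.13, and Pex5l, a partner of hyperpolarisation-activated channels, 44.3, 31.0 and 36.2 CPM in NP and 86.8, 82.0 and 76.9 CPM in LP, a ratio of 2.20. Tmem213 stood at 14.5, 16.5 and 12.8 CPM in NP and 36.6, 37.7 and 30.7 CPM in LP, a ratio of 2.39.

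Protein folding and degradation gave 9 genes. Bag3 and Hspb8 form the chaperone pair that sends damaged filament proteins to autophagy. Bag3 had 30.5, 42.5 and 46.0 CPM in NP and 90.9, 94.2 and 97.5 CPM in LP, a ratio of 2.37, and Hspb8 13.8, 29.7 and 23.7 CPM in NP and 58.3, 62.0 and 65.3 CPM in LP, a ratio of 2.76. In both, NP replicate 1 was the lowest NP sample. Cand2, a regulator of cullin ligases found in muscle, was at 35.2, 42.5 and 43.9 CPM in NP and 98.6, 103 and 95.4 CPM in LP, a ratio of 2.44. Fem1a, a substrate receptor of a cullin ligase, had 62.5, 66.4 and 57.8 CPM in NP and 144, 137 and 137 CPM in LP, a ratio of 2.24. Ubac1 was at 26.5, 30.7 and 36.2 CPM in NP and 71.0, 73.0 and 70.8 CPM in LP, a ratio of 2.30, and Neurl1, a ubiquitin ligase, at 25.8, 27.3 and 28.7 CPM in NP and 59.2, 65.8 and 58.6 CPM in LP, a ratio of 2.24. Fbxo32, the muscle ubiquitin ligase atrogin-1, had 8.36, 17.2 and 16.2 CPM in NP and 31.3, 28.4 and 34.5 CPM in LP. The ratio of 2.26 was 3.75 in replicate 1 and 1.88 in replicates 2 and 3. Dnajb5 and the deubiquitinase Usp2 had ratios of 2.38 and 2.50. Of 14 tested chaperones that serve muscle proteins, with Bag3, Hspb8 and Dnajb5 in the set, 12 were higher and 0 lower in edgeR (1 at an unadjusted p below 0.05 and 0 with DESeq2), and 1 was lower in the fit blocked on replicate number, without NP replicate 2 or without LP replicate 1. Without the 3, 9 of 11 were higher. Of the small heat shock proteins in this list, Hspb6 lay above the range with a ratio of 10.7 (mean NP count 72.0). Hspb3 had a ratio of 56.2, but on a mean NP count of 0.67 reads. Hspb1 (mean NP count 312) lay below the range with a ratio of 1.17.

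In the group of transcription and nucleic acids, 8 genes were in the range and only Smarcd3 was of the muscle class. Smarcd3, a subunit of the chromatin remodelling complex of heart and skeletal muscle, had 16.4, 12.5 and 16.6 CPM in NP and 50.9, 43.2 and 44.4 CPM in LP, a ratio of 3.05. Barx2, a homeobox factor, was at 15.6, 14.8 and 16.6 CPM in NP and 62.3, 54.2 and 56.9 CPM in LP, the highest ratio of the group at 3.69. The zinc finger protein Zfp106, which binds RNA, had 92.7, 77.2 and 83.8 CPM in NP and 216, 215 and 207 CPM in LP, a ratio of 2.51. In each of the 3, LP values lay well above NP values. The orphan nuclear receptor Nr4a1, an immediate early gene, stood at 24.3, 25.6 and 29.1 CPM in NP and 55.2, 58.8 and 57.7 CPM in LP, a ratio of 2.17. E2f6, a repressor of the E2F family, had 25.1, 29.0 and 30.8 CPM in NP and 59.2, 61.2 and 55.4 CPM in LP, a ratio of 2.07, and Eepd1, of DNA repair, 17.4, 14.5 and 15.6 CPM in NP and 30.1, 40.6 and 37.4 CPM in LP, a ratio of 2.28. Tcea3, an elongation factor, and Zbtb47 had ratios of 2.65 and 2.86.

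The microtubule group was the smallest, with 3 genes at nearly the same ratio and none of the muscle class. The kinesin motor Kif1c had 252, 262 and 267 CPM in NP and 583, 549 and 554 CPM in LP, that is 258 ± 8.87 against 567 ± 22.1 CPM (SD, n = 2), and a ratio of 2.16. Tuba4a, an alpha-tubulin, was at 106, 115 and 103 CPM in NP and 228, 228 and 226 CPM in LP, a ratio of 2.11, and Tacc2, a coiled-coil protein of the centrosome, at 69.4, 78.9 and 69.0 CPM in NP and 161, 156 and 155 CPM in LP, a ratio of 2.17. Of the 9 genes that were placed in no other group, Ndrg2 had the most reads in NP, at 143, 186 and 168 CPM in NP and 491, 466 and 464 CPM in LP, a ratio of 2.86. Carbonic anhydrase 3 (Car3), abundant in slow muscle fibres and in fat cells, was at 79.6, 77.5 and 75.7 CPM in NP and 216, 197 and 200.4 CPM in LP, a ratio of 2.63. Of 6 tested fat cell markers, 0 passed in edgeR in either direction (0 at an unadjusted p below 0.05 and 0 with DESeq2). The part of fat cells or of muscle in the Car3 values was not tested. Rilpl1 had 32.0, 34.1 and 37.2 CPM in NP and 99.6, 87.2 and 90.5 CPM in LP, a ratio of 2.69. Aldh1a1, which makes retinoic acid, had 18.2, 20.2 and 25.4 CPM in NP and 40.6, 44.3 and 43.2 CPM in LP, a ratio of 2.01. The methionine sulfoxide reductase Msrb3 was at 9.81, 21.2 and 18.9 CPM in NP and 34.1, 37.4 and 38.6 CPM in LP, a ratio of 2.20, and the glutathione transferase Gstm7 at 10.9, 19.2 and 18.3 CPM in NP and 43.4, 43.5 and 38.0 CPM in LP, a ratio of 2.58. For both, replicate 1 was the lowest NP sample by a wide margin. The metalloproteases Adam19 and Adamts15 and the galectin Lgals9 had ratios of 2.06, 2.06 and 2.46.

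Summed over the 15 genes of the muscle class the values were 366, 618 and 630.1 CPM in NP and 1296, 1445 and 1466 CPM in LP, so NP replicate 1 was the lowest sample. Most of that gap came from Tpm2: the other 14 genes summed to 362, 411 and 422 CPM in NP and 1078, 1084 and 1099.7 CPM in LP, and 7 of the 15 were higher in NP replicate 1 than in the mean of NP replicates 2 and 3. The 42 shared genes summed to 3364, 3404 and 3451 CPM in NP and 8404, 8189 and 8245 CPM in LP, and the 45 other genes to 1655, 1682 and 1735 CPM in NP and 3988, 3937 and 3936 CPM in LP, and neither sum had a gap as large as that of the 15. The 6 smooth muscle markers without desmin (Acta2, Myh11, Tagln, Cnn1, Smtn and Lmod1) were low in replicate 1 of both groups, at 270.0, 1764 and 1699 CPM in NP and 198, 1659.8 and 1559.7 CPM in LP. Of the 7 smooth muscle markers with desmin (Des), 1 (Des) was higher in LP and 0 lower in edgeR (0 at an unadjusted p below 0.05 and 0 with DESeq2). The sum of the 6 without Des differed widely between replicates within each group. A test without the replicate block could therefore miss a change between NP and LP, and these counts do not show the markers to be unchanged. All 24 skeletal muscle markers summed to 62.9, 226 and 217 CPM in NP and 8263, 7991 and 7944 CPM in LP, again lowest in NP replicate 1. Acta1, skeletal actin, had 0, 166 and 144 reads in the NP replicates and 0, 186 and 185 reads in the LP replicates, and Des is made by smooth muscle as well. Without these 2 genes, left out after their values were seen, the other 22 summed to 41.8, 40.8 and 43.3 CPM in NP and 7569.9, 7159 and 7145 CPM in LP.

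**Figure D4:**
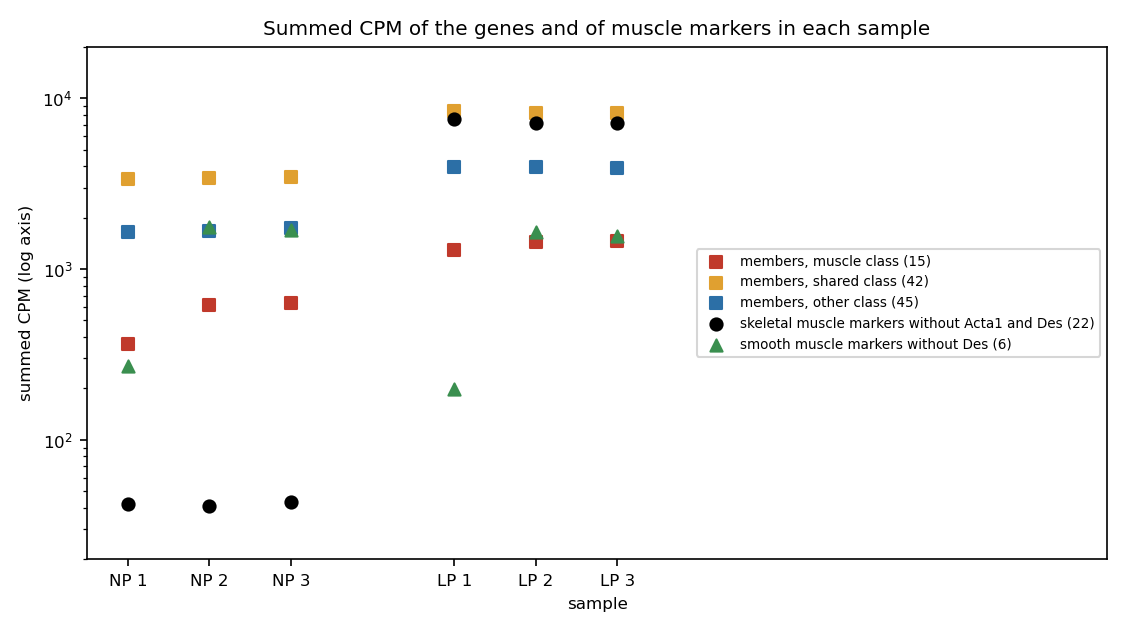
Summed CPM (log axis) in each of the 6 samples for the 3 classes of the 102 genes (squares), for 22 skeletal muscle markers (circles) and for 6 smooth muscle markers (triangles). The skeletal muscle markers are at 40.8 to 43.3 CPM in NP and at 7145 CPM or more in LP, whereas the smooth muscle markers are low in replicate 1 of both groups, at 270.0 and 198 CPM.

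Of the 102 genes, 15 had an NP replicate 1 value at a log2 ratio of -0.5 or less to the mean of NP replicates 2 and 3, that is 5 of the muscle class, 5 shared and 5 other. Over the 9093 genes with a mean NP count of 30 or more this was so for 3.04%. Among the 15 were Tpm2, Msrb3, Nexn, Fbxo32, Hspb8, Ehbp1l1, Gstm7, Ppp1r12b, Efhd1, Adam19, Tln2, Svil, Bag3 and Kcnj11. A low NP value also raises the LP to NP ratio by which the genes were chosen, so this count is not independent of that choice. In LP, 2 of the 102 (Tpm2 and Adam19) were at or below this limit, against 2.83% of the 9093 genes. For 12 of the 15 the gain in CPM from NP to LP was larger in replicate 1 than in replicates 2 and 3, and for 6 of them (Tpm2, Fbxo32, Msrb3, Ppp1r12b and Efhd1 among them) the ratio in replicates 2 and 3 was below 2. The part of smooth muscle in these values was not tested.

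**Figure D5:**
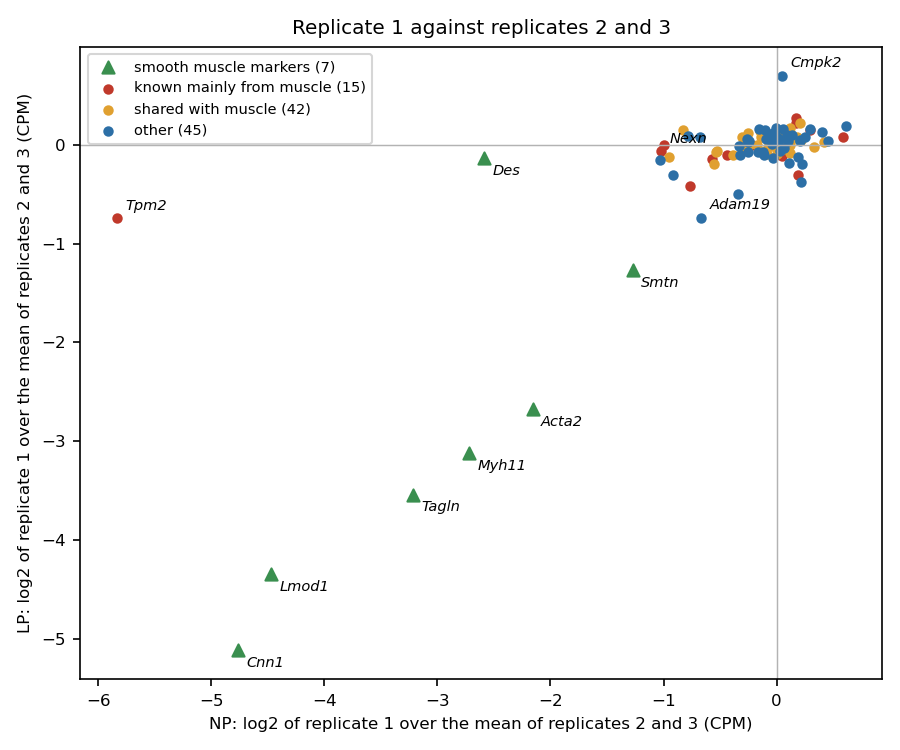
Each point is a gene, placed by the log2 ratio of its CPM in replicate 1 to the mean of replicates 2 and 3, in NP (horizontal) and in LP (vertical), with circles for the 102 genes coloured by class and triangles for 7 smooth muscle markers. Tpm2 lies far to the left at -5.83 in NP and -0.74 in LP, and the smooth muscle markers other than Des lie low on both axes.

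Across all 102 genes the ratio was within 2 to 4 in replicate 1 and also in replicates 2 and 3 for 74, and it was higher in replicate 1 for 64. In replicates 2 and 3 the ratio was within the range for 11 of the 15 muscle genes, 39 of the 42 shared genes and 39 of the 45 others, with medians of 2.63, 2.26 and 2.22. It was below 2 there for 12 genes, the 6 just counted and Cycs, E2f6, Acads, Akap1, Cmpk2 and Aldh1a1. For 93 of the 102 the gain in CPM in replicate 1 lay within 1.5 times that in replicates 2 and 3. When NP replicate 1 was left out, the same thresholds gave 104 genes, of which 87 were among the 102. The counts and medians of this paragraph come from the same samples whose mean ratio chose the genes. Agreement between the replicates is therefore partly built in, and these values are a description only.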

How the data were processed

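Thyroid RNA of 3 NP and 3 LP samples was measured by RNA-seq. The authors aligned reads with TopHat 1.4.0 (build rn5) and counted them on Ensembl genes with HTSeq-count, and the deposited values are raw counts per gene without normalization. How overlapping genes and close paralogs shared reads is not given in the sources used here, and gene lengths were not used, so levels are not compared between genes. CPM was the count divided by the total count of the sample, times 1000000. The authors' own fold changes were not used.

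LP was compared with NP in edgeR 4.0.16 under R 4.3.3 by the quasi-likelihood test (glmQLFit, glmQLFTest) with TMM normalization, the package's default low-count filter and adjustment after Benjamini and Hochberg over 11738 genes. This test, run first on simulated data, served for the lists of pathway and marker genes only. The standard error was the log2 fold change over the square root of F. Alternatives were DESeq2 1.42.0, other normalizations, no filter, other count minimums, medians, each sample left out, and the replicate number as a block. Sums of replicates 2 and 3, and these replicates alone, were added after the data were seen.

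The members and lists were chosen with earlier results of these data known. A few members and list genes are counted but not reported here by name. Each other member is named under its group, the 6 members with the highest mean NP count in each group are, with that exception, given in every sample, and the 3 genes nearest to each threshold are named. Sample values of Nexn, Tmod1, Cacnb1, Fbxo32 and Cmpk2, and the genes outside the set named with their values, were added after their values were seen.

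Total counts were 2752144 to 3449857 per sample, and the limit of 3 reads covers counting error only. The labels give both groups replicate numbers 1 to 3. Deviations from the group means correlated over genes between samples of the same number (r = 0.57, 0.30 and 0.25), so the numbers were taken to pair the samples, although numbers 2 and 3 correlated with each other about as well (0.27 and 0.25). Nothing in the labels names the source of that pairing. Replicates 2 and 3 of a group differed at the level of sampling noise. They entered the edgeR test as separate samples, so its p-values and standard errors may be too small.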

Additional observations from a re-analysis of the deposited data

How the results depend on the processing

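Other settings gave 71 to 124 genes in the range in place of 102: 71 at a mean NP count of 50 or more and 124 at 20 or more, 121 with TMM, DESeq2 size factors or the fitted fold change (99 of them among the 102), 107 with group medians (91 shared), 107 with replicates 2 and 3 summed (99 shared), and 104 to 107 when 1 sample was left out. The numbers of list genes higher in LP stayed within 1.5 times under every alternative run. Small numbers of lower genes moved. With the replicate number as a block, lower genes were 2 of the respiratory chain in place of 1, 2 of glycogen in place of 1 and 1 chaperone in place of 0, and the block moved no other list count by over 1.5 times. With replicates 2 and 3 summed, 0 genes of the respiratory chain and 0 of the dystrophin complex were lower, and with this sum and the replicate block together the counts were 2 for the respiratory chain, 2 for glycogen and 1 for the chaperones. DESeq2 called 0 lower genes of fatty acid oxidation and 0 of the dystrophin complex, and without the filter 0 of the dystrophin complex were lower. When 1 sample was left out, lower genes numbered 0 to 2 in the respiratory chain, 1 to 2 in glycogen, 0 in the dystrophin complex each time, and 0 to 1 among the chaperones. The cause was not tested. Genes near 30 reads in NP have wide counting error, so their side of a ratio of 2 or 4 is not fixed by these data.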
